A study of Homo sapiens with 6 samples.

Results

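NF-κB output was read in MRC5 fibroblasts from 10 genes, chosen by symbol from pathway knowledge, with earlier results of these data known, out of the 25368 gene symbols in each of 2 deposited FPKM tables. All 10 genes were found in both tables. They comprise the feedback targets NFKBIA, NFKBIZ and TNFAIP3, the subunit genes NFKB1, NFKB2 and RELB, and the induced effectors BIRC3, TNFAIP2, SOD2 and ICAM1. NF-κB is a family of dimeric transcription factors held in the cytoplasm by IκB proteins. Signals such as interleukin-1 or TNF activate IκB kinase, which marks IκBα for degradation and lets the dimers enter the nucleus, where they induce inflammatory genes together with their own inhibitors. In fibroblasts this pathway is known for driving cytokines, chemokines and adhesion molecules, often beside AP-1, the factor that contains JUN.

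MRC5 is a line of human embryonic lung fibroblasts, immortalized here with hTERT, and all 6 libraries come from it. In the JUN overexpression table, cells were infected with adenovirus for the empty vector (con), FLAG-tagged JUN WT, or JUN AA, in which alanine replaces the serines that JNK phosphorylates. In the JNKi table, MRC5 without treatment stands beside induced CAFs (iCAFs), which were kept for 7 days in medium conditioned by MDA-MB-231, a human breast cancer line, and beside iCAFs given 1 µM of the JNK inhibitor JNK-IN-8 (JNKi) for 48 h. DMSO served as vehicle, though the label of the iCAFs library does not state that it received any. The conditioned medium was collected without serum while MRC5 were maintained with it, so tumour cell factors and lack of serum cannot be told apart. Infection is shared by all 3 libraries of the JUN overexpression table, and no uninfected library was in it.

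Each condition has 1 library. No difference below has a replicate check, no error can be given and no p-value was computed, and the members' levels are a description of these libraries. FPKM scale fragment counts to transcript length and to library size, so levels of different genes may be compared within a library. Sums of FPKM ran from 494603 to 613184 in the JUN overexpression table and from 359944 to 399532 in the JNKi table. JUN itself had an FPKM of 25.5 (con), 4543 (JUN WT) and 291 (JUN AA). It had an FPKM of 57.1 (MRC5), 55.3 (iCAFs) and 21.1 (iCAFs+JNKi). All 12 fibroblast markers were at 1 FPKM or more in every library. The summed level of 8 epithelial markers ran from 19.99 to 56.4 FPKM, mostly KRT18 and KRT8, with CDH1 listed at 0 in all 6 libraries. That of 8 leukocyte markers ran from 33.2 to 86.1 FPKM and was almost all CD68, highest in JUN WT, with CD3E listed at 0 in all 6. That of 6 endothelial markers ran from 0.471 to 11.0 FPKM, highest in iCAFs+JNKi through TEK, with CDH5 listed at 0 in all 6. The part of these markers in the values below was not tested. Changes are given as differences of log2(FPKM + 1), which understate the change of genes near or below 1 FPKM. A change counted as 2-fold at a difference of 1, and shares of all genes refer to those with a mean of at least 1 FPKM over the 3 libraries of a table.

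A κB motif, the DNA sequence that NF-κB dimers bind, was present in a promoter window of most members that could be read. RefSeq promoter windows of build GRCh38.p14, from 250 bases before to 50 bases after a gene's start, were at hand for 9 of the 10 genes, in 16 windows. The κB consensus GGGRNWYYCC was searched on both strands, where R is A or G, N any base, W A or T, and Y C or T. It lay in 8 of the 16 windows and in 6 of the 9 genes, against 5.91% of all 35116 windows and 7.09% of all 27305 genes. The AP-1 heptamers TGACTCA and TGAGTCA, which are each other's reverse complement, lay in 0 of the 16 windows and in 4.95% of all windows. The windows are short, and a match or its lack is a description of these letters and does not show binding. The 250 bases before the start are printed for the 4 genes with a match whose levels are contrasted most below, 5′ to 3′ on the strand of the gene, with the κB match in capitals. They lie at chr14:35404750-35404999 on the minus strand for NFKBIA, and on the plus strand at chr6:137867009-137867258 for TNFAIP3, chr3:101827740-101827989 for the upstream start of NFKBIZ and chr4:102501109-102501358 for the upstream start of NFKB1.
NFKBIA: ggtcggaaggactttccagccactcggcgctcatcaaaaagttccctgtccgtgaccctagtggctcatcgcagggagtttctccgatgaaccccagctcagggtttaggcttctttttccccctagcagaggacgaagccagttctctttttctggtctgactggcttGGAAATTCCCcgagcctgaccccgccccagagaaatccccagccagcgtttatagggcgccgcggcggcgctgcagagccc
TNFAIP3: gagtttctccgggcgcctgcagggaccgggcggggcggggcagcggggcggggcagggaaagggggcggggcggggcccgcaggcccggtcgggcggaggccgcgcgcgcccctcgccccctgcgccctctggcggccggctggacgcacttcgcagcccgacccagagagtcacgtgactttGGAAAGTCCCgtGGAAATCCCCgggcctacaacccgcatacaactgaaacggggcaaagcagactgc
NFKBIZ: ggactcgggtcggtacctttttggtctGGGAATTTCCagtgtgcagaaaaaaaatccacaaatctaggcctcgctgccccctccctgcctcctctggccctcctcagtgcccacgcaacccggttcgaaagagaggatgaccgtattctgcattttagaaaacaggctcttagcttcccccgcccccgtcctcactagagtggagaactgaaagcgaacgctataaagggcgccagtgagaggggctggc
NFKB1: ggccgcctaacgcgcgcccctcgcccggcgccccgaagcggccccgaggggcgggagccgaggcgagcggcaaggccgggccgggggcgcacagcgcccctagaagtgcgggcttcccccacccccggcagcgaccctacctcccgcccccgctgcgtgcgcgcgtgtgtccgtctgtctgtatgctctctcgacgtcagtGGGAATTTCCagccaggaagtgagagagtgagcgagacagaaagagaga
The match begins at position -81 in NFKBIA, -67 and -55 in TNFAIP3, -223 in NFKBIZ and -49 in NFKB1, counted from the start site. Read on the other strand, the NFKBIA match is GGGAATTTCC, the same 10 bases as in NFKBIZ and NFKB1. In TNFAIP3, 2 matches stand 2 bases apart. The matches in the remaining genes are shown to let them be compared with these. NFKB2 holds 5, of which the first 2 overlap, and BIRC3 holds 2.
NFKB2, window 2, position -107: GGGAATTCCC
NFKB2, window 2, position -106: GGAATTCCCC
NFKB2, window 2, position -78: GGGGCTTTCC
NFKB2, window 3, position -176: GGGGCTTCCC
NFKB2, window 3, position -21: GGGACTTTCC
BIRC3, position -199: GGAAATCCCC
BIRC3, position -135: GGAGTTCCCC
A downstream start of NFKBIZ also carried a match, GGGGTTTCCC. No match to this consensus was found in the windows of TNFAIP2, SOD2 and ICAM1, nor in window 1 of NFKB2 or at the downstream start of NFKB1. Looser forms of the motif were not searched. The ICAM1 window holds GGAAATTCCG, which differs from the NFKBIA match in its last base only.

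The feedback targets all rose in tumour medium. NFKBIA encodes IκBα, the inhibitor that binds NF-κB dimers, and lies on GRCh37 at chr14:35870285-35873955. It had an FPKM of 9.97 (MRC5), 57.3 (iCAFs) and 23.4 (iCAFs+JNKi), a rise of 2.41 on the log2 scale in iCAFs. TNFAIP3 encodes A20, a ubiquitin-editing enzyme that shuts off signalling upstream of IκB kinase, and lies at chr6:138188351-138204451. It had an FPKM of 1.64 (MRC5), 14.7 (iCAFs) and 6.44 (iCAFs+JNKi), and rose by 2.58 in iCAFs. NFKBIZ encodes IκBζ, a nuclear IκB protein that helps to induce a subset of targets, and lies at chr3:101546835-101579866. Its level went from 4.81 FPKM in MRC5 to 46.7 FPKM in iCAFs, a rise of 3.04, and was 38.4 FPKM in iCAFs+JNKi. Untreated MRC5 was thus the lowest library of its table for all 3 feedback targets and iCAFs the highest, while the library with JNKi lay between them.

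The subunit genes moved less in iCAFs than the feedback targets did. RELB encodes the Rel subunit of the alternative pathway, at chr19:45504719-45541450, and rose by 1.44, from 3.24 FPKM in MRC5 to 10.5 FPKM in iCAFs, with 5.89 FPKM in iCAFs+JNKi. NFKB1 and NFKB2, at chr4:103422487-103538459 and chr10:104153867-104162281, encode precursors that are processed to DNA-binding subunits. NFKB1 had an FPKM of 7.28 (MRC5), 13.4 (iCAFs) and 7.01 (iCAFs+JNKi). NFKB2 had an FPKM of 12.0 (MRC5), 22.1 (iCAFs) and 15.0 (iCAFs+JNKi). Their differences in iCAFs of 0.80 and 0.83 stayed under 2-fold. RELA, which encodes the main activating subunit and is no member, was at 38.7, 37.3 and 33.1 FPKM in MRC5, iCAFs and iCAFs+JNKi.

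Among the effectors, ICAM1 had the largest difference of the 10 genes in iCAFs. ICAM1 encodes an adhesion molecule for leukocytes and lies at chr19:10381769-10397291. It had an FPKM of 3.46 (MRC5), 45.7 (iCAFs) and 13.3 (iCAFs+JNKi), a rise of 3.39 that ranked 19 among 11780 genes. SOD2, the mitochondrial manganese superoxide dismutase, lies at chr6:160090101-160183561. It was the most abundant of the 10 genes in all 6 libraries and rose by 2.45, from 82.2 FPKM in MRC5 to 454 FPKM in iCAFs, with 156 FPKM in iCAFs+JNKi. TNFAIP2, a TNF-induced gene at chr14:103587813-103603776, rose by 1.08, from 8.19 FPKM in MRC5 to 18.4 FPKM in iCAFs, and was at 10.3 FPKM in iCAFs+JNKi. BIRC3, at chr11:102188215-102210134, encodes a ubiquitin ligase of the apoptosis inhibitor family that acts in TNF receptor complexes. It was the lowest of the 10 in all 6 libraries, with an FPKM of 0.34 (MRC5), 1.51 (iCAFs) and 0.19 (iCAFs+JNKi), and at these levels its values carry little weight.

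**Figure D1:**
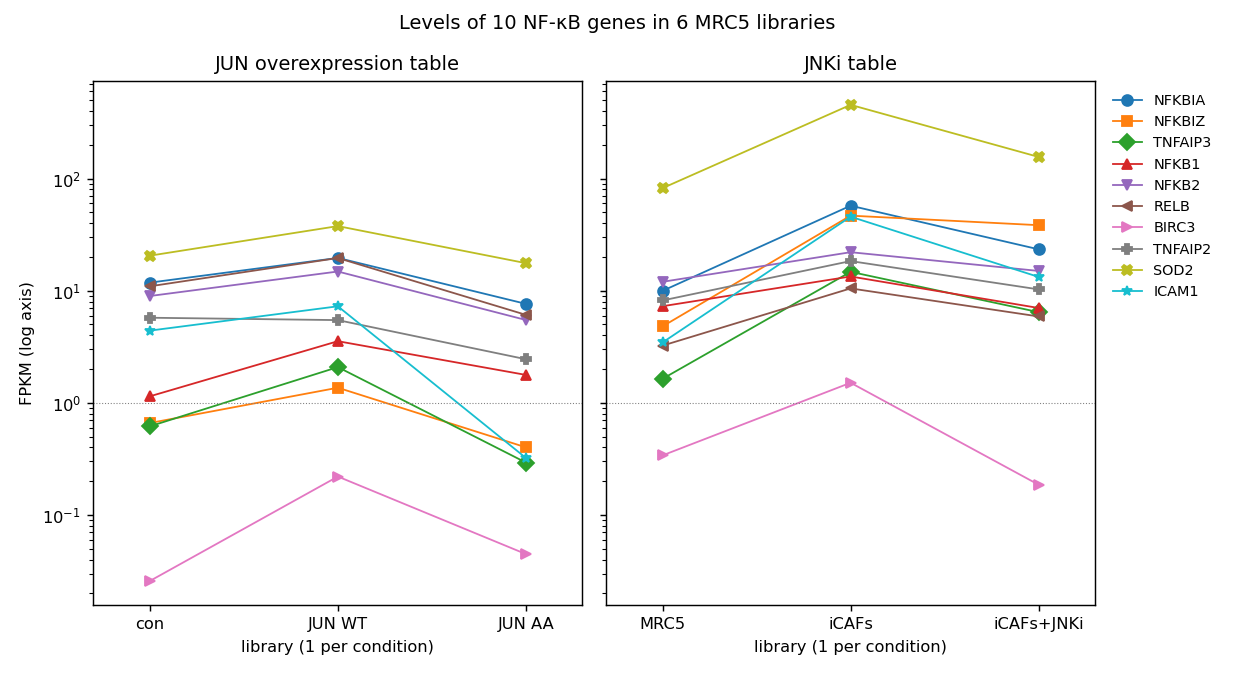
FPKM of the 10 NF-κB genes on a log axis in each library, with 1 point per gene and library, lines joining the points of a gene within a table and a dotted line at 1 FPKM. In the JNKi table iCAFs is the highest library for all 10 genes, for example SOD2 at 454 FPKM, and in the JUN overexpression table JUN WT is the highest for all but TNFAIP2.

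Set against all genes, 10 of 10 members were higher in iCAFs than in MRC5, where 40.6% of the 11780 genes were higher. Of the 10, 7 were at least 2-fold higher, against 1.94% of all genes and 0.978% where no filter was set. The median difference of the 10 was 1.92, and 2.41 over the 9 that passed the filter, with BIRC3 left out by its mean. The median of all genes was -0.061. The direction of every member was kept with FPKM rescaled to the same sum and with differences centred on the median gene. As the table was made of 1 library per condition, the spread that repeat cultures would give is unknown.

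With JNKi, 10 of 10 members were lower than in iCAFs, where 62.6% of all genes were lower. At least 2-fold lower were 5 of the 10, namely ICAM1, SOD2, NFKBIA, BIRC3 and TNFAIP3, against 1.97% of all genes and 1.02% where no filter was set. The difference was -1.71 for ICAM1, -1.54 for SOD2, -1.26 for NFKBIA, -1.08 for BIRC3 and -1.08 for TNFAIP3. TNFAIP3 stands close to the threshold and was at -0.98 once differences were centred on the median gene. BIRC3 was at -0.98 with centring, but at -1.67 with FPKM rescaled and -2.49 with a pseudocount of 0.1 FPKM. Rescaling set each sum to 1e+06, above the deposited sums, so the added 1 weighs less on low values there too. The remaining differences ran from -0.85 for NFKB1, through -0.78 for TNFAIP2, -0.74 for RELB and -0.53 for NFKB2, to -0.28 for NFKBIZ. The median of the 10 was -0.96, and -0.85 over the 9 that passed the filter, against -0.099 for all genes. All 5 AP-1 genes that passed the filter were lower with JNKi. The differences were -1.35 for JUN, -1.02 for FOSL1, -0.99 for FOSL2, -0.93 for JUND and -0.056 for JUNB. Of 12 fibroblast markers, 11 were higher there, although 62.6% of all genes were lower. The summed level of the markers was 12468 FPKM, against 8204 FPKM in iCAFs and 7929 FPKM in MRC5. The part of these genes and markers in the members' values was not tested.

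The share of the rise in iCAFs over MRC5 that JNKi left in place differed widely from member to member. It was taken on the FPKM scale, as the difference of iCAFs+JNKi from MRC5 in percent of that of iCAFs from MRC5, and because both differences rest on the same MRC5 library it is a description only. For NFKBIZ 80.2% of the difference was left. For the other feedback targets it was 36.6% in TNFAIP3 and 28.4% in NFKBIA. The subunit genes RELB and NFKB2 kept 36.6% and 29.9%, whereas NFKB1, at -4.31%, was marginally under its MRC5 level. ICAM1 kept 23.2%, TNFAIP2 20.4% and SOD2 19.8%, and BIRC3 was at -13.2%. Set directly against untreated MRC5, iCAFs+JNKi was thus higher in 8 of the 10 genes, where 33.6% of all genes were higher, and at least 2-fold higher in 4, against 3.28% of all genes and 1.71% without the filter. These 4 were NFKBIZ, ICAM1, TNFAIP3 and NFKBIA, with differences of 2.76, 1.68, 1.49 and 1.15. SOD2 was at 0.91, and it reached 1.08 with differences centred on the median gene.

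**Figure D2:**
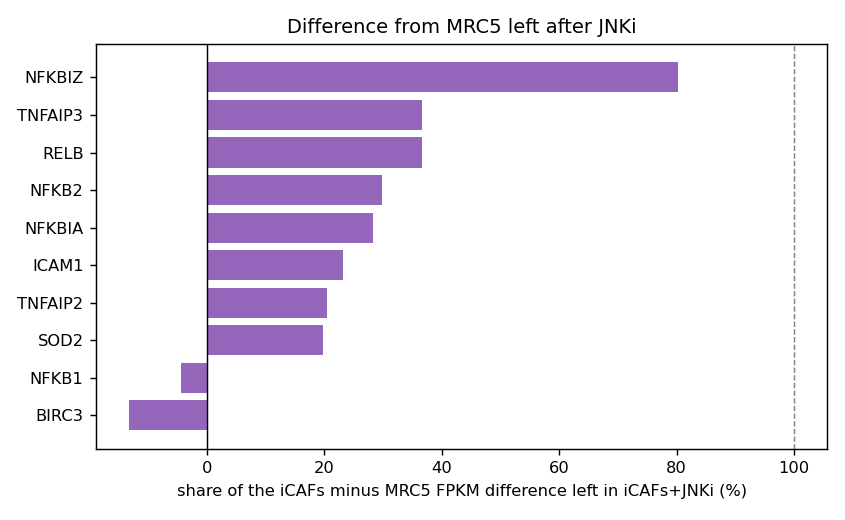
Share of the FPKM difference between iCAFs and MRC5 that was left in iCAFs+JNKi, in percent, with 1 bar per gene from single libraries and a dashed line at 100%. NFKBIZ stands apart at 80.2%, 7 genes lie between 19.8% and 36.6%, and NFKB1 and BIRC3 fall below 0.

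In the JUN overexpression table, 3 of the 10 genes hardly registered. BIRC3, NFKBIZ and TNFAIP3 had means under 1 FPKM over the 3 libraries and did not pass the filter, TNFAIP3 with a mean of 0.998 FPKM. NFKBIZ had an FPKM of 0.66 (con), 1.36 (JUN WT) and 0.40 (JUN AA). TNFAIP3 had an FPKM of 0.62 (con), 2.08 (JUN WT) and 0.29 (JUN AA). BIRC3 had an FPKM of 0.026 (con), 0.22 (JUN WT) and 0.045 (JUN AA), levels too low to read a change from. The most abundant feedback target, NFKBIA, had an FPKM of 11.8 (con), 19.6 (JUN WT) and 7.63 (JUN AA). JUN WT was thus the highest and JUN AA the lowest library for all 3 feedback targets.

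The subunit genes RELB and NFKB2 followed the same order of libraries. RELB had an FPKM of 10.9 (con), 19.6 (JUN WT) and 6.09 (JUN AA). NFKB2 had an FPKM of 8.97 (con), 14.8 (JUN WT) and 5.48 (JUN AA). NFKB1 had an FPKM of 1.14 (con), 3.55 (JUN WT) and 1.77 (JUN AA), so that here both JUN libraries lay above con. RELA had an FPKM of 52.0 (con), 40.5 (JUN WT) and 35.8 (JUN AA).

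Of the effectors, ICAM1 had the largest difference in JUN AA. ICAM1 had an FPKM of 4.41 (con), 7.26 (JUN WT) and 0.32 (JUN AA), and its fall of 2.03 in JUN AA ranked 48 from the lowest among 10311 genes. With a pseudocount of 0.1 FPKM that difference was -3.41. TNFAIP2 had an FPKM of 5.74 (con), 5.47 (JUN WT) and 2.45 (JUN AA). SOD2 had an FPKM of 20.5 (con), 37.7 (JUN WT) and 17.6 (JUN AA). For TNFAIP2 the control and JUN WT were nearly level, whereas for SOD2 the control and JUN AA were the closest pair.

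Compared with con, 9 of the 10 members were higher in JUN WT, where 60.9% of the 10311 genes were higher. At least 2-fold higher was 1 of the 10, NFKB1 with a difference of 1.09, against 6.92% of all genes and 3% without the filter, and none was 2-fold lower, against 3.39% of all genes. Centred on the median gene, NFKB1 was at 0.94. The differences of the others ran from 0.93 for TNFAIP3 and 0.85 for SOD2 to 0.25 for BIRC3 and -0.060 for TNFAIP2. With a pseudocount of 0.1 FPKM, the differences of TNFAIP3 and BIRC3 were 1.61 and 1.35. The median of the 10 was 0.68, and 0.69 over the 7 that passed the filter, against 0.15 for all genes. In JUN AA 8 of the 10 were lower than in con, where 51.4% of all genes were lower, and 1, ICAM1, was at least 2-fold lower, against 3.77% of all genes and 1.62% without the filter. The median in JUN AA was -0.45 over the 10 and -0.62 over the 7, against -0.015 for all genes. With FPKM rescaled to the same sum, 3 of the 7 were at least 2-fold lower and the median of the 7 was -0.94. The sum was 613184 in JUN AA and 494603 in con, so rescaling moves genes at large and not the members alone. The share and median of all genes after rescaling were not computed. These comparisons share the con library, so that a high or low con value would move both.

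Set directly against each other, JUN WT exceeded JUN AA in 10 of the 10 members, where 62.5% of all genes were higher. At least 2-fold higher were 6 of the 10, against 6.65% of all genes and 2.89% without the filter. The difference was 2.64 for ICAM1, 1.54 for RELB, 1.29 for NFKB2, 1.25 for NFKBIA, 1.25 for TNFAIP3 and 1.06 for SOD2. The remaining 4 had differences of 0.91 for TNFAIP2, 0.75 for NFKBIZ, 0.71 for NFKB1 and 0.22 for BIRC3. Of the 7 members that passed the filter, 5 were past 2-fold. That count was 6 with a pseudocount of 0.1 FPKM, 7 with FPKM rescaled to the same sum, 4 with differences centred and 3 with the trend in GC content removed. Shares of all genes under these settings were not computed. JUN mRNA itself was far lower in JUN AA than in JUN WT, so the phosphosites and the amount of JUN cannot be told apart.

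Interferon-stimulated genes differed between the JUN libraries in the same directions as most members. They were listed because an earlier account of these data describes such genes as moving there. Their counts in JUN WT and JUN AA are thus a description only. Of 22 such genes, 22 were higher in JUN WT than in con, where 60.9% of all genes were higher. Their median difference was 1.36, with a range from 0.22 to 2.75. In JUN AA 22 of 22 were lower than in con, where 51.4% of all genes were lower. The median there was -2.72, with a range from -5.93 to -0.68. In iCAFs against MRC5, 12 of the 22 passed the filter, and their median was -0.22. Of these 12, 0 were 2-fold changed in either direction, against 1.94% of all genes higher and 1.71% lower. Over all 22, 1 was 2-fold higher, OASL, at 0.20 FPKM in MRC5 and 1.69 FPKM in iCAFs. With JNKi, 9 of the 12 that passed the filter were lower than in iCAFs, where 62.6% of all genes were lower. Their median was -0.32. IFIT2 and IFIT1 were at least 2-fold lower, with differences of -1.28 and -1.004, against 1.97% of all genes. Over all 22, 3 were 2-fold lower, with OASL added. The part of the interferon-stimulated genes in the members' values was not tested.

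**Figure D3:**
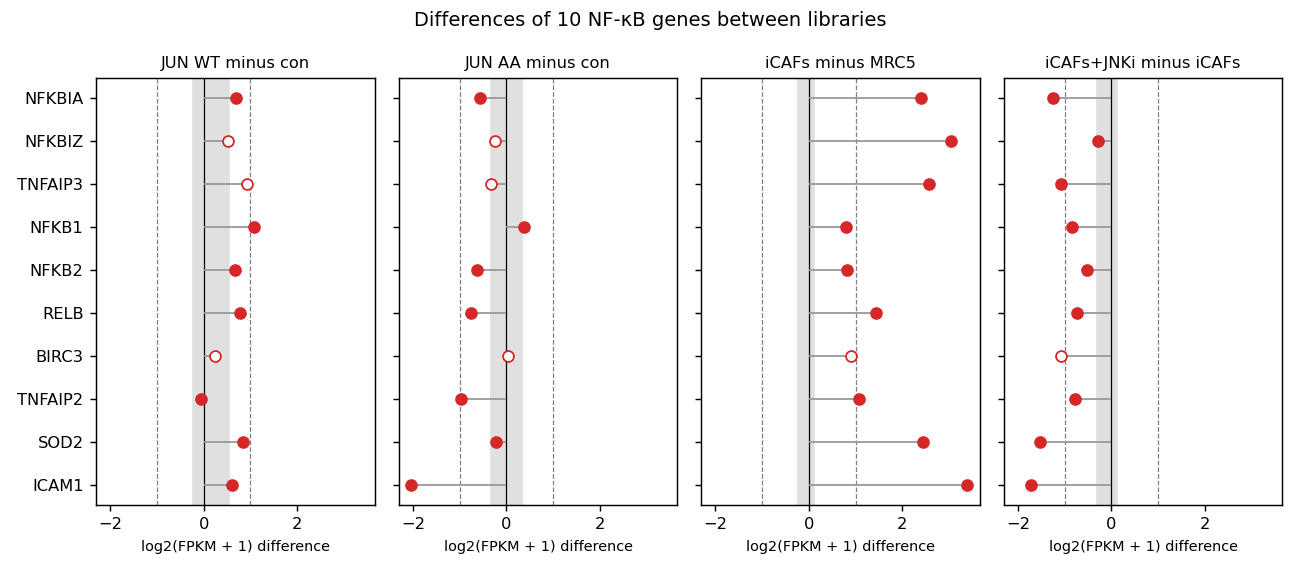
Differences of log2(FPKM + 1) for the 10 genes in 4 comparisons of single libraries, with dashed lines at 2-fold, a grey band from the lower to the upper quartile of all genes, and open points for genes with a mean under 1 FPKM. All 10 points lie right of 0 for iCAFs minus MRC5 and left of 0 for iCAFs+JNKi minus iCAFs, and ICAM1 at -2.03 is the sole point past 2-fold for JUN AA minus con.

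The rest of the pathway was read from lists of its parts, counted over the genes that passed the filter. In iCAFs, where 1.94% of all genes were 2-fold higher, none of 8 kinases and none of 6 receptors rose 2-fold, and neither did RELA. By any amount all 6 receptors were higher, where 40.6% of all genes were. The receptor median was 0.50, against -0.061 for all genes. TNFRSF1B came closest to the threshold, at 0.97, from 3.67 to 8.16 FPKM. Of the kinases 5 were higher and 3 lower. Of 18 adaptors, 2 rose 2-fold, IRAK2 by 1.97 and IRAK3 by 1.69, both kinase-like proteins of the interleukin-1 receptor complex. Of 11 further IκB proteins and brakes, 1 rose 2-fold, TNIP1, which encodes an A20-binding protein, from 55.0 to 172.8 FPKM. With JNKi, where 1.97% of all genes were 2-fold lower, 1 of the 18 adaptors and 1 of the 11 brakes fell 2-fold. These were IRAK2, by 2.12 from 20.7 FPKM in iCAFs, and TNIP1, by 1.22, to 73.4 FPKM. IRAK3 fell by 0.47, from 3.8 to 2.5 FPKM, and with JNKi was still 1.22 higher than in MRC5.

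Of the ligands that start the pathway, IL1B was listed at 0 in MRC5 but reached 193.6 FPKM in iCAFs, with 25.9 FPKM left under JNKi. IL1A, also listed at 0 in MRC5, reached 12.5 FPKM in iCAFs, with 0.76 FPKM left under JNKi, while TNF was listed at 0 in all 3. IL33, the alarmin of the interleukin-1 family, went the other way with JNKi, rising by 1.59 from 0.34 FPKM in iCAFs to 3.01 FPKM. It was listed at 0 in MRC5 and passed the filter only through iCAFs+JNKi, as IL1A did only through iCAFs. TNFSF12, the only other ligand that passed the filter, had an FPKM of 20.5 (MRC5), 18.0 (iCAFs) and 19.8 (iCAFs+JNKi). Of 26 other NF-κB target genes, 21 passed the filter. In iCAFs 12 of these rose at least 2-fold, against 1.94% of all genes, and none fell 2-fold. By any amount 17 were higher and 4 lower, where 40.6% of all genes were higher. CXCL8, a neutrophil chemokine, had the largest rise, from 0.15 to 547.9 FPKM. Genes near 0 in MRC5 pass the filter through the libraries where they are high. Over all 26 the count that rose 2-fold was 13, against 0.978% of all genes without the filter. Of all genes, 1.71% were 2-fold lower in iCAFs. With JNKi, 10 of the 21 fell 2-fold, against 1.97% of all genes, and 1 rose 2-fold, against 2.25%. Over all 26, 11 fell 2-fold, against 1.02% of all genes without the filter. Some of these, such as CCL20 and BCL2A1, passed the filter through iCAFs. CCL20 had the largest fall, from 27.4 to 1.80 FPKM, and TNFAIP6, which encodes a hyaluronan-binding protein, rose from 0.86 to 4.09 FPKM.

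In the JUN overexpression table, 16 of the 26 other target genes passed the filter. In JUN WT 3 of these rose at least 2-fold, CXCL8, CXCL3 and CFLAR, against 6.92% of all genes. A 2-fold fall was seen in 1, against 3.39%, namely PLAU, the urokinase plasminogen activator, from 350.2 to 149.9 FPKM. CXCL8 and CXCL3 passed the filter only through JUN WT. Over all 26 the count that rose 2-fold was 4, against 3% of all genes without the filter. CXCL8, listed at 0 in con, reached 4.46 FPKM in JUN WT but 0.10 FPKM in JUN AA. In JUN AA 2 rose 2-fold, where 5.29% of all genes did, BCL2A1, which passed the filter through that library, and TNFAIP6. There 3 fell 2-fold, where 3.77% of all genes did, IRF1, PLAU and GADD45B. IRF1, an interferon regulatory factor, was at 12.6 FPKM in con and 3.69 FPKM in JUN AA. IL1A, IL1B and TNF stayed under 0.5 FPKM in all 3 libraries of this table, the highest being IL1B at 0.23 FPKM in JUN WT. The ligands that passed the filter were IL33, with an FPKM of 0.63 (con), 2.16 (JUN WT) and 3.42 (JUN AA), and TNFSF12, with an FPKM of 11.4 (con), 15.1 (JUN WT) and 14.4 (JUN AA). IL33 rose by 1.44 in JUN AA and was higher there than in JUN WT, unlike the 10 members. Among the adaptors 4 of 15 rose 2-fold in JUN WT, where 6.92% of all genes did, namely TRAF1, IRAK2, TIFA and IRAK4. The largest rise was that of TRAF1, from 0.33 to 2.70 FPKM. TRAF1, IRAK2 and TIFA passed the filter only through JUN WT. Over all 19 adaptors the count that rose 2-fold was 4, against 3% of all genes without the filter. MYD88 fell by 1.29 in JUN AA. Against the same shares of all genes, 1 of 8 kinases rose 2-fold in JUN WT, RIPK2 by 1.22, and 1 in JUN AA, TBK1 by 1.15. Of 10 further IκB proteins and brakes, only CYLD rose 2-fold in JUN WT, by 1.22, and none changed 2-fold in JUN AA.

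**Figure D4:**
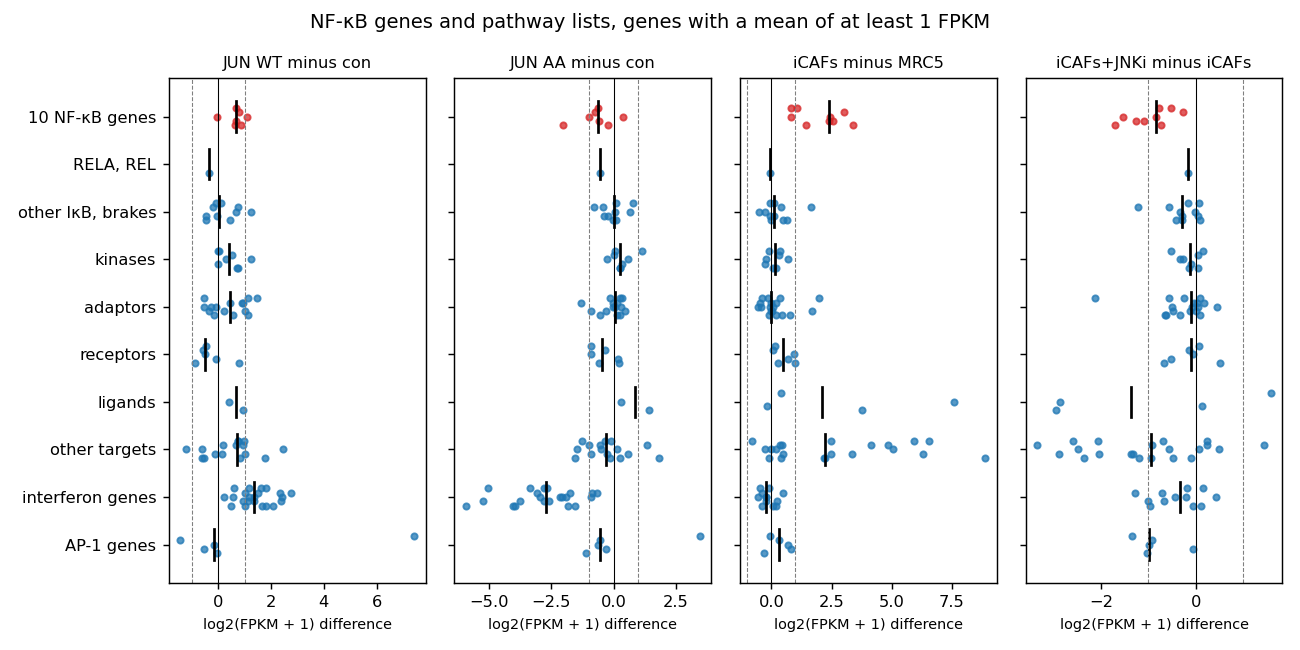
Differences of log2(FPKM + 1) for the 10 NF-κB genes in red and for lists of other genes in blue, with 1 point per gene with a mean of at least 1 FPKM, black bars at the median of a list, dashed lines at 2-fold and a separate scale in each panel. The median of the members is 2.41 for iCAFs minus MRC5, beside 2.21 for the other targets and 0.14 for the kinases.

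Genes whose pattern was most like that of the members were sought among the 10020 genes that passed the filter in both tables. The measure was the root mean square distance over the 6 libraries between log2(FPKM + 1) values centred within each table. The nearest to the median profile of the 10 members were ENC1, CDK2, BDKRB2, SLC22A4 and LOC100131315, at distances of 0.16, 0.17, 0.19, 0.19 and 0.21. ENC1, the nearest, was at 15.8, 52.2 and 35.4 FPKM in MRC5, iCAFs and iCAFs+JNKi and at 4.44, 5.99 and 2.34 FPKM in con, JUN WT and JUN AA. The nearest to NFKBIA alone were LOC100131315 at 0.19, IL11 at 0.22 and SCG5 at 0.26. IL11, a cytokine gene, was at 10.6, 72.7 and 37.8 FPKM in MRC5, iCAFs and iCAFs+JNKi.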

How the data were processed

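RNA-seq libraries of 6 MRC5 cultures, 1 per condition, were read from 2 tables. The authors mapped reads to hg19 with HISAT2 2.1.0 at default parameters and deposited FPKM values per gene from StringTie 2.1.1. The annotation, strand setting and read number are not given in the sources used here. At most 44 genes under 0.5 FPKM had the same ratio between a pair of libraries, so the depth is unknown. Each table has 25370 rows. For a symbol listed more than once, the row with the larger mean was used.

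Within each table, 6 comparisons in all were computed as differences of log2(FPKM + 1) with Python 3.11.15, numpy 2.4.6 and pandas 2.3.3, and tested on simulated data. No test was possible with 1 library per condition. All members and JUN are named. The largest rise and fall of a list in the comparisons to con, MRC5 and iCAFs could be named, and not all of them are. Members of a count of 5 or fewer, marker genes, TNFSF12, RELA, FOSL1, TNF and levels of ligands under the filter were named after their values were seen. The members and lists were chosen with earlier results of these data known.

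Gene positions come from GRCh37, which is hg19, with GENCODE. On it NFKBIZ shares exon bases with NXPE3 and SOD2 with ACAT2 and WTAP, and TNFAIP3, BIRC3, TNFAIP2, SOD2 and ICAM1 with non-coding genes. How StringTie divided such reads is unknown. Alternatives were a pseudocount of 0.1, rescaling, centring, other filters, summed rows, a threshold of 0.58 and removal of the trend in GC content of the canonical transcript over 20 bins, found for 91.1% and 90.4% of genes and added after the data were seen.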

Additional observations from a re-analysis of the deposited data

How the results depend on the processing

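No paired analysis was possible because each condition has 1 library. Depth is unknown, so the precision of single values cannot be given. A median was taken to have moved past 0.25 on the log2 scale and a count past 1.5 times, limits set for want of replicates. The medians in JUN WT minus con, iCAFs+JNKi minus iCAFs and iCAFs+JNKi minus MRC5 stayed within that limit under every alternative computed. After scaling the libraries to an equal FPKM sum, the median of the 7 members that passed the filter was -0.94 in JUN AA minus con, with 3 members at least 2-fold lower, and 1.58 in JUN WT minus JUN AA. Such scaling moves genes at large. Shares of all genes were computed only for the main setting and without the filter. With the GC trend removed, a setting added after the data were seen, the latter was 0.99, with 3 members at least 2-fold higher. A pseudocount of 0.1 FPKM gave 2 members 2-fold lower in JUN AA minus con. Without the filter the median in iCAFs minus MRC5 was 1.92 over 10 members. With differences centred, 0 members were 2-fold higher in JUN WT minus con. At a mean of at least 5 FPKM, 4 members were left in that table and 0 were past 2-fold in JUN WT minus con or, in the lower direction, in JUN AA minus con. At a threshold of 0.58 there were 6 higher in JUN WT minus con, 4 lower in JUN AA minus con and 7 lower in iCAFs+JNKi minus iCAFs. The share of all genes at 0.58 was not computed. For all genes the upper quartile in JUN WT minus con was 0.53. The lower quartiles in JUN AA minus con and iCAFs+JNKi minus iCAFs were -0.33 and -0.31. Among 60 single differences of members, the sign changed for 1 with rescaling, 1 with centring and 3 with GC removal. These were NFKB1 in iCAFs+JNKi minus MRC5 under all 3 settings, and TNFAIP2 in JUN WT minus con and BIRC3 in JUN AA minus con under the last. The cause was not tested.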
